A study of Mus musculus with 8 samples.

Results

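The regions described here are the sites of enrichment in PRDM16 immunoprecipitates that were still called after the Prdm16 gene was deleted. They are the unions of overlapping peaks from both wild-type (WT) libraries that also overlapped, by at least 1 bp, a peak in at least 1 of the 2 conditional knockout (cKO) libraries. Of 10090 regions found in both WT lists, 858 met this rule (8.50%, Wilson 95% interval 7.98 to 9.06), out of 33210 merged regions in any of the 4 lists. They are called kept regions. The other 9232 regions of both WT lists, in neither cKO list, are called WT-only. The members were chosen by the peak calls in the 4 lists, so this count and the fold enrichments below are descriptions and carry no test.

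Sites bound by PRDM16 were mapped by sequencing immunoprecipitated chromatin (ChIP-seq) from the whole cortex of E15.5 mouse embryos, after crosslinking with PFA and EGS and sonication. The 2 cKO libraries came from Emx1Ires-Cre; Prdm16flox/flox embryos and the 2 WT libraries from Prdm16 flox/flox embryos, so both genotypes carried floxed alleles and the Cre was present in the cKO alone. Emx1 drives Cre in the dorsal telencephalic lineage, and cells of other origin in a whole cortex lysate keep an intact gene. Both genotypes were precipitated with the same donated PRDM16 antibody. Peak lists do not measure cell type markers or Prdm16 expression, so neither the tissue nor the deletion was checked with them. The labels do not say whether replicates came from separate embryos.

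PRDM16 carries a PR domain and zinc fingers and regulates transcription. In the embryonic cortex it is made by radial glia, the stem cells that line the ventricle and give rise to neurons. In ChIP-seq, tissue without the protein shows what an antibody recovers in its absence. CTCF, a zinc-finger protein that shapes chromosome loops and binds many gene starts, is named below for the resemblance of a sequence pattern alone.

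The files hold 4553 and 3088 peaks for cKO replicates 1 and 2, and 13852 and 26652 peaks for WT replicates 1 and 2. Read totals are not given in the lists. The read pileup at each summit and its local background were solved from the deposited fold and −log10 p-value, and the smallest background of a list stands for its genome-wide pileup. This was 2.95 and 2.52 reads in the cKO replicates and 0.777 and 1.78 reads in the WT replicates, so the cKO libraries were read at the higher background depth. Kept regions rested on a median of 27 and 25 reads at the summit in the cKO replicates and 14 and 25 reads in the WT replicates. The lowest summits held 13 and 13 reads in the cKO replicates and 7 and 10 in the WT replicates. Both WT lists carry one library identifier and both cKO lists another, so genotype and what that identifier marks cannot be told apart.

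The stretches that follow lie upstream of genes whose start window overlaps a kept region with a high cKO fold. They are shown because 3 of them carry, within 60 bases of the mean cKO summit, a sequence pattern that was more frequent at kept than at WT-only gene starts. Each is the RefSeq sequence of the GRCm38.p6 (mm10) build, 5′ to 3′ on the gene's strand, taken from up to 60 bases on either side of the mean cKO summit and ending before the gene start. Capitals mark a match, on either strand, to a pattern like the core of the CTCF motif (CC, any 3 letters, AG, any 2 letters, GGC), or, in Asrgl1, the 8 letters TACGGTAA.
Nipsnap2 (chr5:129724925-129725045, + strand): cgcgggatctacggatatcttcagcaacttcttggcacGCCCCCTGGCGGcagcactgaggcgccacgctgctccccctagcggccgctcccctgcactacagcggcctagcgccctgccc
Vps36 (chr8:22192743-22192832, + strand): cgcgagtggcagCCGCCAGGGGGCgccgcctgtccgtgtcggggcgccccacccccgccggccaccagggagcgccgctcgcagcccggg
Rab2b (chr14:52279410-52279530, - strand): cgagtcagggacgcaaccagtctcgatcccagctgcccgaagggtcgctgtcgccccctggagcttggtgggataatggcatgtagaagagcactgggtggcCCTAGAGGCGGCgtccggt
Asrgl1 (chr19:9135637-9135757, - strand): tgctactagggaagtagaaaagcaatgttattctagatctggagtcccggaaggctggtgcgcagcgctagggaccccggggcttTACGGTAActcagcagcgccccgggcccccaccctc
Slc10a7 (chr8:78509079-78509199, + strand): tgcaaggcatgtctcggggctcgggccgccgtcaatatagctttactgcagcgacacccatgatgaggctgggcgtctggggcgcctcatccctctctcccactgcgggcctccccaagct
The Slc10a7 stretch holds neither pattern and is shown as the case without a match. Its region also covers the start window of Rbmxl1 on the other strand.

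Kept regions lay at gene starts far more often than WT-only regions did. A summit within 1 kb of an annotated start of a protein-coding gene was found in 209 of 858 kept regions (24.4%, 21.6 to 27.3) and in 537 of 9232 WT-only regions (5.82%, 5.36 to 6.31). This is an odds ratio of 5.21, with an interval of 4.34 to 6.25 (Fisher's exact test, two-sided, adjusted exact p = 9.16e-61 over 2 position tests). The other position classes, not tested, held 31.4% of kept and 45.5% of WT-only regions in gene bodies away from starts, 31.8% and 28.1% outside genes but within 100 kb, and 12.5% and 20.6% over 100 kb from any protein-coding gene. Regions are not replicates of a genotype, so this p compares lists of regions and takes no account of variation from embryo to embryo. For genes without a strand in the reference, either gene end counted as a start. With strand known, the shares were 19.1% of kept and 4.58% of WT-only regions. Starts were also common in the whole cKO lists. The narrower start windows searched below held a summit of 862 of 4553 and 631 of 3088 peaks of cKO replicates 1 and 2. They held a WT summit of 123 of 858 kept and 289 of 9232 WT-only regions. Lying at starts is thus not particular to kept regions among cKO peaks.

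**Figure D1:**
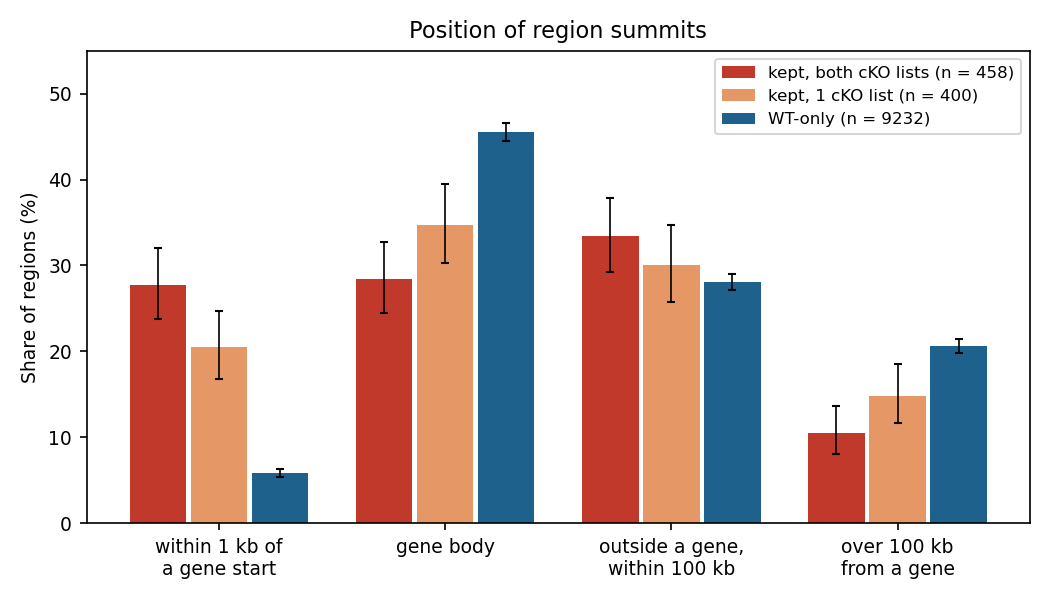
Share of regions (%, vertical axis) by position of the summit relative to protein-coding genes, for kept regions in both cKO lists, kept regions in 1 cKO list and WT-only regions. Bars are shares and whiskers Wilson 95% intervals; 27.7% of kept regions in both cKO lists and 5.82% of WT-only regions were at a gene start.

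Of the 858 kept regions, 458 were called in both cKO lists (53.4%, 50.03 to 56.7). Another 254 were called in cKO replicate 1 alone, and 146 in cKO replicate 2 alone. Gene starts made up 27.7% of those in both cKO lists and 20.5% of those in 1 list (odds ratio 1.49, 1.07 to 2.07, Fisher's exact test, two-sided, adjusted exact p = 0.0167). That difference was lost when a region needed an overlap of 50% of the shorter peak (odds ratio 1.24, adjusted exact p = 0.209) or a cKO summit inside it (1.30, adjusted exact p = 0.120). It was also lost when WT replicate 1 (0.942, adjusted exact p = 0.602) or WT replicate 2 (1.02, adjusted exact p = 0.901) was left out, and it was 4.56 with lists of equal length. Without WT replicate 1 the rule gave 1739 kept regions.

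Among regions of both cKO lists, the cKO summits were a median of 25 bp apart, and 343 of 458 were within 50 bp. For a single pair of a cKO and a WT library the median distance was 54 to 63 bp, with upper quartiles of 132 to 155 bp. Those pairs covered 712 or 604 regions, which include regions called in 1 cKO list. The WT summits were a median of 46 bp apart over all 858 kept regions. These sets of regions differ, so the medians are not set against each other. Only the summit of the strongest peak of each list was compared. In 93 of the 858 regions these cKO summits were over 200 bp from these WT summits, as at Slc12a8 (684 bp) and Zbtb20 (656 bp). Kept regions were narrower, with a median union of 443 bp against 549 bp for WT-only regions. In 8 kept regions the strongest cKO peak also lay over a second kept region.

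The rule needs an overlap of 1 bp, and few members were near that limit. The smallest overlaps were 2 bp in the body of Maml3, a Notch co-activator gene, 6 bp in Zfhx3, a homeobox gene, and 13 bp in Tnrc6a, which encodes a microRNA effector protein. Only 10 kept regions overlapped a cKO peak by less than 50 bp, and the median overlap was 224 bp. Just outside the rule, cKO peaks lay 3 bp from a WT-only region at the proteasome gene Psma6 and 4 bp from those at Meis2, a homeobox gene, and Mlf2. In all, 25 WT-only regions had a cKO peak within 100 bp and 151 within 1000 bp.

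Kept gene starts were rich in G and C and often held a CTCF-type pattern near the summit. RefSeq windows from 250 bases before to 50 after a gene start were searched where they held a WT summit, which gave 133 windows at 123 kept regions and 324 windows at 289 WT-only regions. Their median GC content was 63% and 55%, against 52.7% over all 32851 windows, and the median number of CG dinucleotides was 24, 10 and 7. Windows holding any summit of cKO replicates 1 and 2 had a higher median GC, 67% and 66%, with 28 and 27 CG dinucleotides. Those of WT replicates 1 and 2 had 60.3% and 59.3%, with 19 and 17. The CTCF-type pattern occurred in 40 of 133 kept windows (30.1%, 22.9 to 38.3), in 42 of 324 WT-only windows (13.0%, 9.74 to 17.1) and in 8.61% of all windows. A stricter form contained in it, with AGG and any 1 letter before the last GGC, gave 17.3%, 4.32% and 3.43%. Both forms were chosen after the sequences were seen, so their shares carry no test. Over the whole lists, the looser form was in 33.1% and 29.8% of windows holding a summit of cKO replicates 1 and 2, and in 19.3% and 17.0% of those holding a summit of WT replicates 1 and 2.

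Base composition moved with these shares. In windows of 60 to 70% GC, the looser form was in 17 of 59 kept windows (28.8%, 18.8 to 41.4), 16 of 80 WT-only windows (20%, 12.7 to 30.05) and 14.7% of all windows, so the intervals of kept and WT-only windows overlapped. The stricter form was in 16.9% (9.48 to 28.5), 6.25% (2.70 to 13.8) and 6.62%. The Sp/KLF box GGGCGG, a common GC-rich promoter element, was in 63.2% of kept, 40.1% of WT-only and 35.7% of all windows, but in 69.5%, 70% and 75.1% at 60 to 70% GC. Over the whole lists it was in 73.6% and 71.9% of windows of cKO replicates 1 and 2. For WT replicates 1 and 2 it was in 55.3% and 53.2%.

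The CTCF-type matches at kept starts lay nearer to the summits. Their median distance to the nearest WT summit was 38.5 bp over 45 matches, and 19 of them (42.2%) lay within 30 bp. At WT-only starts the median distance to a WT summit was 77.5 bp over 42 matches, with 10 (23.8%) within 30 bp. For the Sp/KLF box the medians to a WT summit were 76.5 bp at kept starts and 84.0 bp at WT-only starts. Measured to cKO summits, the medians at kept starts were 30.5 bp over 47 CTCF-type matches and 68.5 bp for the Sp/KLF box. These differences were not tested, and the CTCF-type pattern was chosen after the windows were seen, so its distances give no separate support. Distances were not compared within windows of like GC content. In the stretches printed above, the match was centred 16.5 bp from the mean cKO summit at Nipsnap2, 42.5 bp at Vps36 and 47.5 bp at Rab2b. These are starts with high cKO folds, but matches were not more frequent there. Of 75 regions in both cKO lists with a cKO summit in a start window, a match was found for 12 of the 37 with the higher cKO folds (32.4%) and 16 of the 38 with the lower ones (42.1%). A match says only that these letters are in the window.

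**Figure D2:**
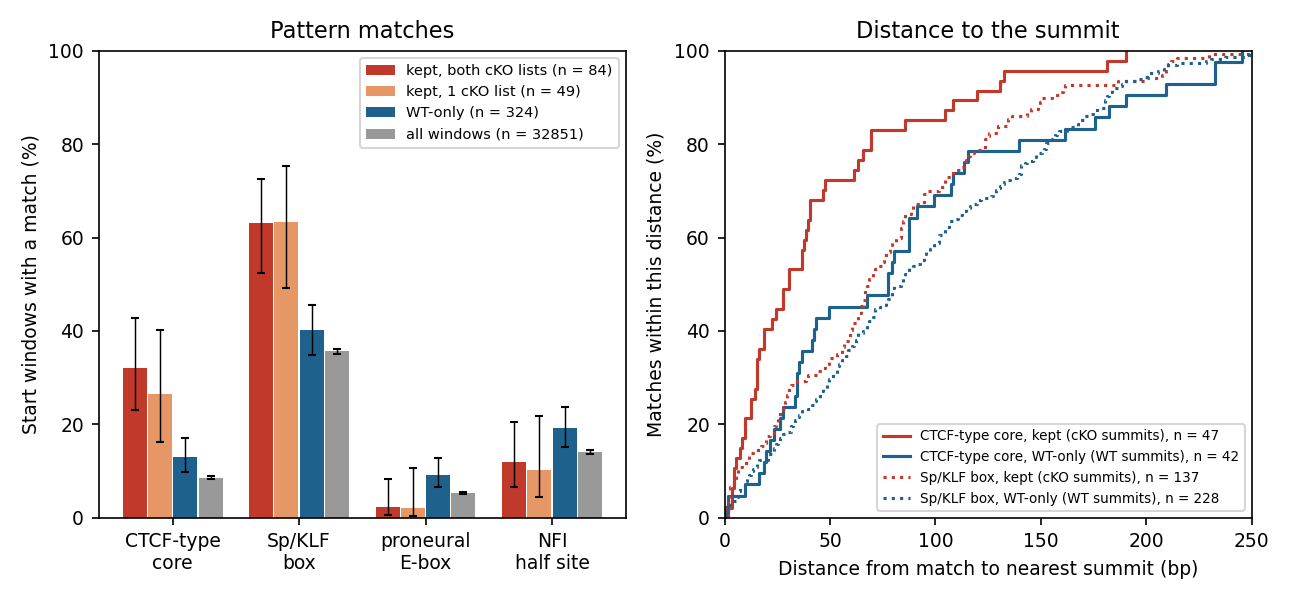
Left, share of gene start windows (%) with a match to each of 4 patterns, for kept regions in both cKO lists, kept regions in 1 list, WT-only regions and all windows, with Wilson 95% intervals. Right, cumulative share of matches (%) by distance to the nearest summit (bp). Matches to the CTCF-type pattern, which was chosen after the windows were seen, lie closest at kept starts. Their median is 30.5 bp to cKO summits (38.5 bp to WT summits), against 77.5 bp to WT summits at WT-only starts.

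The 8 letters TACGGTAA were rare everywhere and present in 4 kept windows. They occurred in 4 of 133 kept windows (3.01%, 1.18 to 7.48), each of a region in both cKO lists, in 2 of 324 WT-only windows (0.617%, 0.169 to 2.22) and in 43 of all 32851 windows (0.131%). The 4 windows belong to Urod, a haem synthesis gene, Gxylt2, Fbxw10 and the asparaginase gene Asrgl1, and the match lay 5.5 to 43.5 bp from a summit. At Fbxw10 the fold was 20.6 and 11.6 in cKO replicates 1 and 2, against 28.1 and 36.9 in WT replicates 1 and 2. At Asrgl1 it was 20.6 and 18.7 in the cKO, against 20.1 and 26.3 in the WT. At Urod the fold was 17.5 and 9.06 in the cKO, against 14.1 and 14.1 in the WT. At Gxylt2 the fold was 7.09 and 5.12 in the cKO, against 5.07 and 9.96 in the WT. Fbxw10 and Asrgl1 thus ranked high within the lists of both genotypes. The Gxylt2 fold in cKO replicate 2 was near that list's median of 4.96. This pattern, too, was chosen after the windows were seen.

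Patterns of factors active in the cortex gave lower shares at kept than at WT-only starts, with no test of the differences. The proneural E-box CAGATGG, bound by factors such as Neurog2, was in 3 of 133 kept windows (2.26%, 0.770 to 6.42), 9.26% of WT-only windows (6.56 to 12.9) and 5.30% of all windows, counted on both strands as were all patterns. The NFI pattern TTGGCA was in 11.3%, 19.1% and 14.1%, the homeobox core TAATTA in 4.51%, 7.41% and 5.29%, and the SOX pattern AACAATG in 3.01%, 6.17% and 3.78%. The POU octamer ATGCAAAT was in 0.752%, 3.70% and 1.74%. For the last 4 patterns the intervals of kept and WT-only windows overlapped, and for the E-box the kept interval held the share of all windows. In windows holding a summit of cKO replicates 1 and 2, the E-box was in 3.37% and 4.196%, and TTGGCA in 9.71% and 8.11%. There TAATTA was in 0.818% and 2.098%, AACAATG in 1.53% and 2.098%, and ATGCAAAT in 0.920% and 0.2797%. The E-box in both lists, and the octamer in cKO replicate 1, were above the kept share. All were below the share of all windows, so low shares are not particular to kept starts among cKO peaks. The part of base composition was not tested for these patterns.

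The first kept regions to be described were taken for their high cKO folds, so their places in the cKO lists are given by that choice. Of the 100 highest peaks of cKO replicates 1 and 2, 63 and 64 lay in a kept region, against 15.9% and 19.8% of all peaks in these lists. Of the 100 highest of WT replicates 1 and 2, 8 and 8 did, against 6.57% and 3.31% of all peaks. The lists differ in length, so these counts are not compared between genotypes. The fold of a peak is the authors' value, a ratio of the summit pileup to its local background, solved here with 1 added to both. That addition lowers folds more where the background is small, as in the WT replicates. The fold ranks peaks within 1 list and was not used to measure a change between genotypes. Folds of cKO and WT replicates set side by side below are therefore not on 1 scale.

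The first member by cKO fold lay 1764 bp outside Rfx7, an RFX transcription factor gene, at chr9:72530233-72530599. Its fold was 31.9 and 30.4 in cKO replicates 1 and 2, from 126 and 112 reads, and 12.7 and 14.0 in WT replicates 1 and 2, from 32 and 52 reads. It ranked second and first in the cKO lists, and 1442nd and 1664th in the longer WT lists. The start of Nipsnap2, which encodes a mitochondria-associated protein, had 34.4 and 21.6 in the cKO replicates, against 12.4 and 7.38 in the WT replicates. The region 2078 bp outside Gtf3c5, a subunit gene of the RNA polymerase III factor TFIIIC, had 30.7 and 24.5, against 12.3 and 12.01. Rfx7 and Gtf3c5 stayed within the first 4 places of both cKO lists, while Nipsnap2 ranked first and 13th.

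Next came a region in the body of Niban2 at 28.2 and 21.7 in the cKO replicates, against 14.1 and 10.03 in the WT replicates. The start of Vps36, which encodes a subunit of the ESCRT-II endosomal sorting complex, had 28.4 and 21.5, against 6.33 and 8.71. A region 2490 bp outside Syngr1, a synaptic vesicle gene, had 24.6 and 22.7, against 4.62 and 7.55. The WT values of Syngr1 rested on 11 and 20 reads. Further members of this group lay 5312 bp outside Nckap5l (mean 23.7 in cKO and 8.06 in WT) and 857 bp outside the protease gene Adamts4 (23.5 and 6.72). Gins4, a DNA replication gene, had one at its start (22.3 and 10.7), and another lay 19444 bp outside Th, the tyrosine hydroxylase gene (20.6 and 8.85).

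Ccnd1, the cyclin D1 gene, stood out in this group by its WT fold. Its region at chr7:144943307-144943828, 3737 bp outside the gene, had 28.9 and 18.2 in cKO replicates 1 and 2, and 24.3 and 19.3 in WT replicates 1 and 2. It ranked 5th and 26th in the cKO lists, and 280th and 701st in the longer WT lists. Of the 12 regions with the highest cKO folds it had the highest WT mean, 21.8 ± 3.56 (SD, n = 2).

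The kept regions with the highest WT folds spanned a wide range of folds in the cKO lists. In the body of Slc12a8, a solute carrier gene, a region of 1864 bp had 8.08 and 8.21 in the cKO replicates, against 49.2 and 51.8 in the WT replicates. The start of Vat1l had 20.8 and 8.69, against 41.1 and 54.5. A region in Wdfy1, an endosomal protein gene, had 14.5 and 12.3, against 39.6 and 46.2. Of these 3, Vat1l and Wdfy1 had cKO summits within 6 bp of a WT summit, and Slc12a8 did not, by the strongest peak of each list.

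Another 4 regions of this group were called in 1 cKO list only. The region in Nek11, a NIMA-related kinase gene, had a fold of 5.32 in cKO replicate 1, against 43.9 and 41.4 in the WT replicates. Gucy1b2, a guanylate cyclase subunit gene, had 3.50 in cKO replicate 2, against 38.4 and 31.2 in WT, and a region 29083 bp outside Veph1 had 4.20, against 28.2 and 41.0. The last, on chromosome 3, had no protein-coding gene within 100 kb and a fold of 4.62, against 33.1 and 35.2. Their cKO peaks rested on 15 to 20 reads.

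**Figure D3:**
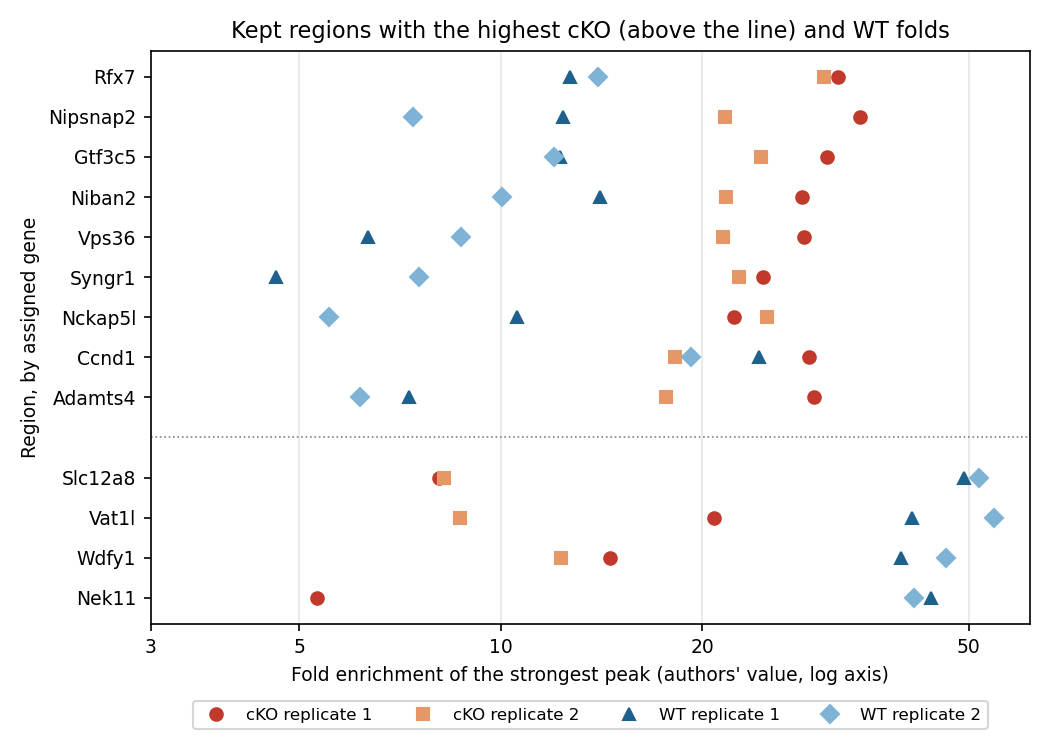
Fold enrichment (authors' value, log axis) in each of the 4 libraries, for the 9 kept regions with the highest mean cKO fold (above the dotted line) and the 4 with the highest mean WT fold (below it), by assigned gene. A missing cKO point means no call; above the line the cKO folds run up to 34.4, and below it the WT folds run up to 54.5.

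Fold ranks were closer within a genotype than between genotypes. Over the 458 regions of both cKO lists, Spearman's rho was 0.742 between the cKO replicates and 0.592 between the WT replicates. Between a cKO and a WT replicate it was 0.168 to 0.318. These are descriptions across regions, which share libraries and depth. The mean cKO fold had a median of 6.395 at gene starts and 6.41 elsewhere. The mean WT fold of all kept regions had a median of 6.06 at starts and 7.31 elsewhere.

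**Figure D4:**
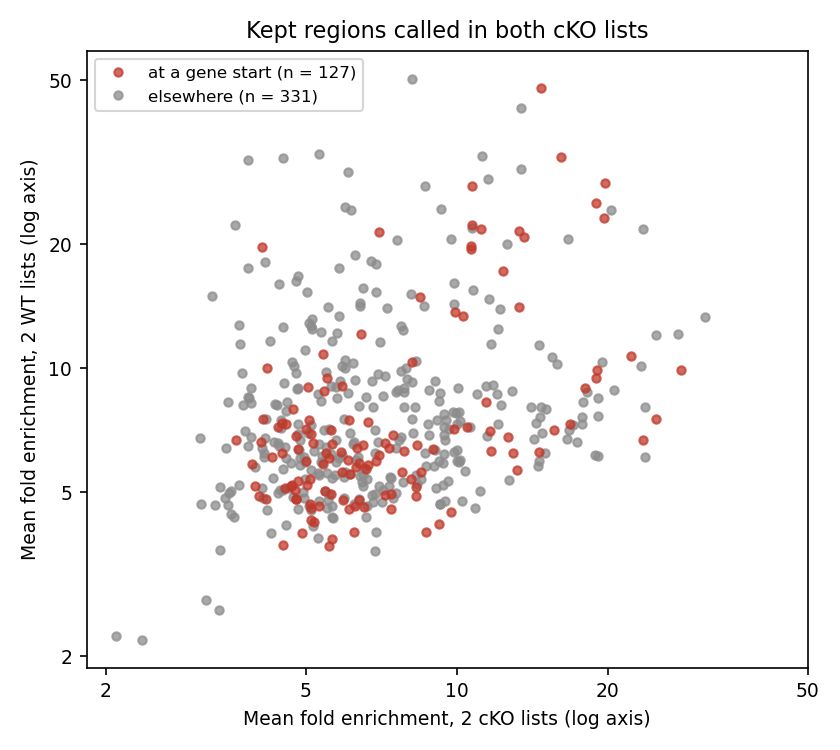
Mean fold enrichment in the 2 cKO lists (horizontal, log axis) against that in the 2 WT lists (vertical, log axis) for the 458 kept regions called in both cKO lists, coloured by position. Regions with the highest cKO means, up to 31.2, and those with the highest WT means, up to 50.5, are mostly different points.

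At each level of WT fold, regions at gene starts were kept more often than regions elsewhere. Of the 746 regions of both WT lists at gene starts, 28.0% (24.9 to 31.3) were kept, against 6.01% (5.35 to 6.75) of those in gene bodies, 9.54% (8.51 to 10.7) of those outside genes but within 100 kb, and 5.33% (4.43 to 6.399) of those further away. Across 5 equal groups by mean WT fold, lowest to highest, the share kept at starts was 27.4%, 29.6%, 27.4%, 20.9% and 36.8%, and elsewhere 8.73%, 6.77%, 6.18%, 5.97% and 7.23%. In each group the intervals of starts and other positions did not overlap.

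**Figure D5:**
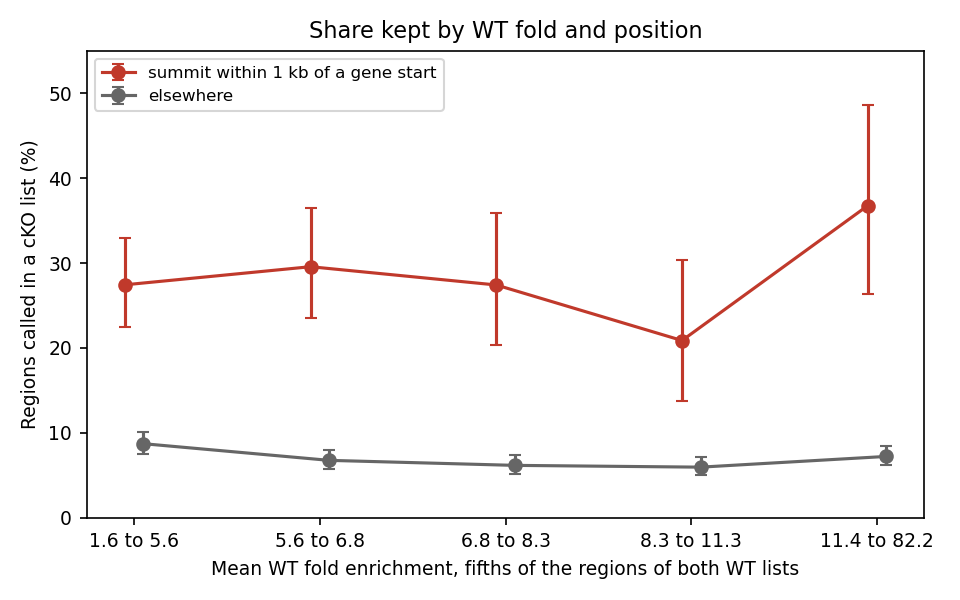
Share of the regions of both WT lists that was called in a cKO list (%, vertical axis) in 5 equal groups by mean WT fold (horizontal axis), for summits at gene starts and elsewhere; whiskers are Wilson 95% intervals. The start shares run between 20.9% and 36.8% and the others between 5.97% and 8.73%.

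Kept regions were assigned to 695 of 21887 protein-coding genes (3.18%), and WT-only regions to 3593 (16.4%). Of the 695 genes, 323 (46.5%) also had a WT-only region, which is 8.99% of the genes with a WT-only region. A single kept region was found at 650 genes, 2 at 39 and 3 or more at 6, and 107 kept regions had no gene within 100 kb. Long genes and genes with long flanks take more regions, and the gene counts that follow were not corrected for this. Where a listed gene had several kept regions, the values given are of the region with the highest WT mean.

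Genes of cortical development held kept regions above the 3.18% of all genes, beside far more WT-only regions. Their WT-only shares were likewise above the 16.4% of all genes, so the excess is not particular to kept regions. The lists were chosen with earlier results known, and the excess was not tested. Among radial glia genes 3 of 27 (11.1%) had one and 26 had a WT-only region. Pax6, a dorsal patterning factor, had 9.93 and 5.99 in the cKO replicates, against 11.0 and 7.82 in WT; Zbtb20 had 16.8 and 7.17, against 8.88 and 8.46; and Hes1, a Notch effector, had 5.32 and 7.16, against 4.26 and 8.99, at a site 56132 bp outside the gene. Among intermediate progenitor genes 3 of 15 (20%) had one and 12 a WT-only region. The strongest in WT lay 6953 bp outside the proneural gene Neurog2, with 4.03 and 3.19 in the cKO replicates, against 19.5 and 24.97 in WT. The others lay at the starts of the RNA-binding protein gene Elavl4 and the stress response gene Gadd45g.

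Projection neuron genes gave 4 of 20 (20%), with 19 holding a WT-only region. Sox5, a factor of deep-layer neurons, had 5.72 and 6.59 in the cKO replicates, against 22.6 and 25.9 in WT. Regions 54289 bp outside Mef2c, in the body of Foxp2 and 83206 bp outside Tle4 were each called in 1 cKO list, with WT means of 9.33, 8.86 and 5.40. Migration and guidance genes gave 5 of 31 (16.1%), with 25 holding a WT-only region. The highest, 23385 bp outside the semaphorin receptor gene Nrp1, had 10.7 and 6.53 in the cKO replicates, against 22.7 and 32.8 in WT. Regions at Reln, which encodes the secreted migration signal reelin, at Epha4, an ephrin receptor gene, and at Lrp8, a reelin receptor gene, had WT means of 8.74, 7.52 and 5.77. Unc5d, a netrin receptor gene, was the last. Astrocyte and oligodendrocyte genes gave 4 of 18 (22.2%), with 12 holding a WT-only region. The start of Nfix, a nuclear factor I gene, had 10.8 and 9.01 in the cKO replicates, against 15.7 and 11.7 in WT, and a region in its relative Nfia had 11.4 and 7.16, against 4.88 and 4.49. A region 28737 bp outside Sox10, called in cKO replicate 1 alone, had a WT mean of 10.1. One 380 bp outside the proteoglycan gene Bcan had 8.98.

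Of 15 PRDM family genes, 0 had a kept region and 6 had a WT-only region. In a list of this length that count is near the 3.18% of all genes and does not set the family apart. Of 23 Notch pathway genes 2 had a kept region, Maml3 and Hes1, and 12 a WT-only region. Ventral telencephalon and interneuron genes gave 1 of 20, the neuregulin receptor gene Erbb4, and endothelial and microglial genes 1 of 16, the myeloid factor gene Spi1. The Spi1 region lay inside the gene, 501 bp from an end counted as a start. It had 3.60 and 5.97 in the cKO replicates, against 6.16 and 7.52 in WT. The ventral and endothelial list counts are each a single gene, and WT-only regions were held by 8 and 1 genes of these lists. Of all genes, 16.4% held a WT-only region.

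The kept regions of housekeeping genes lay mostly at gene starts. Across all genes 0.946% had a kept region at the start and 2.37% a WT-only one. Cytosolic ribosomal protein genes gave 2 of 30 (6.67%), both at starts. Rplp0, which encodes a ribosomal stalk protein, had 8.32 and 7.98 in the cKO replicates, against 11.8 and 8.97 in WT, and its window holds a CTCF-type match 3.5 bp from a summit. Rpl27 had 5.32 in cKO replicate 1, against 7.01 and 4.70 in WT. Mitochondrial translation genes gave 2 of 27, the starts of Mrps2 (6.77 and 7.02, against 5.62 and 6.32) and Tsfm, an elongation factor gene. Proteasome genes gave 2 of 29, the starts of Psmc6 and Psma7, each called in cKO replicate 2. Endosomal sorting genes gave 3 of 28, Vps36, Vps37c and Vps37d. Respiratory chain genes gave 1 of 30, the start of Ndufv2. These 5 lists had a WT-only region at 1, 1, 4, 3 and 1 genes. At any position, 3.18% of all genes had a kept and 16.4% a WT-only region.

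In the remaining lists 1 or 2 genes had a kept region. Of 36 genes listed as histone-modifying enzymes 1 had a kept region, Chd7, which encodes a chromatin remodeller and not such an enzyme. Its region had 3.38 and 3.37 in the cKO replicates, against 4.96 and 5.34 in WT. RFX and cilium genes gave 1 of 35, Rfx7, and general transcription factor and polymerase genes 1 of 32, Gtf3c5. Cell cycle genes gave 2 of 24, Ccnd1 and Ccnd2, another D-type cyclin gene, with 3.22 and 4.15 in the cKO replicates, against 5.46 and 4.94 in WT. A WT-only region was held by 8 genes of the histone-modifying list (22.2%), 13 RFX and cilium genes (37.1%), 4 general transcription factor and polymerase genes (12.5%) and 5 cell cycle genes (20.8%). Over all genes, 3.18% had a kept and 16.4% a WT-only region. The kept shares of 2.78%, 2.86% and 3.13% in the histone-modifying, RFX and polymerase lists are near the former. The 8.33% of the cell cycle list rests on 2 genes.

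A few genes carried several kept regions. Auts2, a gene linked to autism, had 6 beside 31 WT-only regions, more of either than the other genes with several. Its strongest, at chr5:131457686-131458780, had 4.58 in cKO replicate 2 alone, against 30.3 and 28.2 in WT. Another, at chr5:131775384-131775759, had 11.1 and 9.17 in the cKO replicates, against 6.19 and 5.77 in WT. Foxo6, a forkhead factor gene, had 5 kept and 4 WT-only regions, spread over chr4:120242554-120283238, with cKO folds of 3.52 to 5.51 and WT folds of 4.004 to 10.4.

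Ndufa4l2 had 3 kept regions and 0 WT-only regions. The highest in the cKO, in the gene body, had 9.09 and 10.9 in the cKO replicates, against 8.75 and 6.86 in WT. Msra, a methionine sulfoxide reductase gene, Ptma, the prothymosin alpha gene, and Sorl1, a sorting receptor gene, had 3 each, beside 4, 2 and 5 WT-only regions. Of the Sorl1 regions, neighbouring ones 14084 and 12934 bp outside the gene share their peak in cKO replicate 2 (5.38). The kept region at the start of Pdzrn3, a ubiquitin ligase gene, chosen for mention after its values were seen, spanned 852 bp and had 12.2 and 9.25 in the cKO replicates, against 24.8 and 30.7 in WT.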

How the data were processed

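For each ChIP library the authors deposited a narrowPeak list. Per the submitters' processing notes, the reads were handled with FastQC, cutadapt, Bowtie2 2.2.8 and MACS2 2.1.1 on the mm10 build, with settings not given. The deposited lists hold the fold enrichment (a ratio), the −log10 p-value, the −log10 q-value and a score, which is 10 times the latter cut to a whole number. The input libraries were not analysed here. Lines outside chromosomes 1 to 19, X and Y were left out, which removed 37, 19, 12 and 14 of them from cKO replicates 1 and 2 and WT replicates 1 and 2. Overlapping peaks within a list were merged, and a region took the strongest peak of each list. Summit reads were solved from fold and p-value under a Poisson background, within 0.001 of the listed −log10 p, for 99.9% to 100.0% of peaks.

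Genes came from RefSeq GRCm38.p6, with 21887 protein-coding genes, of which 17492 had strand and start windows; none on chromosome 18 had one. The gene of a region was that of a start within 1 kb of the more significant WT summit, or else the gene holding it or nearest within 100 kb. Position shares were compared with Fisher's exact test (scipy 1.17.1, Python 3.11.15), adjusted by Benjamini-Hochberg over 2 tests; intervals are Wilson and cover counting error only. The members, the 18 gene lists and the 25 sequence patterns were chosen with earlier results of these data known, and 3 further patterns after the windows were seen. Named genes are those of the 12 highest cKO and 8 highest WT means, list members, genes with 3 or more regions and those at the limit of the rule; 2 of them are not reported here. Overlap and Fisher steps were tested on simulated data. Alternatives were other overlaps, thresholds, list lengths, windows and leaving out each library.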

Additional observations from a re-analysis of the deposited data

How the results depend on the processing

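The odds ratio for gene starts, kept against WT-only, kept its direction and call in each alternative, between 4.24 and 5.41 without 1 library. It was 7.74 with lists of equal length, 6.06 with a window of 500 bp and 4.94 with one of 2000 bp. The comparison of both cKO lists with 1 did not hold throughout. It kept its direction and call at a q-value of 0.001 or less (1.58), and with windows of 500 bp (1.55) and 2000 bp (1.38). With lists of equal length it was 4.56. It was lost with 50% overlap (1.24), with cKO summits inside the region (1.30) and without a WT library (0.942 to 1.02). Without WT replicate 1 it turned direction. The cause was not tested. The count of kept regions was 156 with lists of equal length (87 in both cKO lists, 7.60% of WT regions), since each list was cut to 3088 peaks, and 458 (4.54%) where both cKO lists were required. A q-value of 0.001 or less gave 7.94%. Leaving out 1 library gave 604 to 1739 kept regions, 5.99% to 8.59% of WT regions, 589 to 768 in both cKO lists and 44.2% to 49.5% of the kept regions in both. The high counts came without WT replicate 1, where WT replicate 2 alone defined the regions. No paired analysis was possible because regions join both replicates of a genotype and no test was run over samples. Depth limits the weak calls: a region not called in a cKO list may hold signal below its threshold.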

Other observations

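Kept regions were spread over all chromosomes that held a region of both WT lists. The share of such regions that was kept was highest on chromosome 7, at 11.8% (59 of 499, 9.28 to 15.0), and lowest on the X chromosome, at 5.63% (8 of 142, 2.88 to 10.7), and no comparison between chromosomes was tested. Genes of small RNAs were rarely close: 3 of 858 kept regions had a tRNA gene within 500 bp (0.350%), against 9 of 9232 WT-only regions (0.0975%), and 3 had a microRNA gene (0.350%), against 7 (0.0758%). Long noncoding RNA genes lay within 500 bp of 17.1% of kept and 16.4% of WT-only regions.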
